A study of Mus musculus with 4 samples.

Results

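The S100 genes encode small calcium-binding proteins, and 8 of them were examined in RAW264.7, an established mouse line with macrophage properties that came from a tumour induced by Abelson leukaemia virus. The genes (S100a1, S100a4, S100a6, S100a8, S100a9, S100a10, S100a11 and S100a13) were listed by symbol. They were selected on prior sight of the FPKM levels and of the treated against control differences in these same libraries, so both are given as descriptions, and a call or a p-value printed for one of them is not independent evidence. Of the 8 genes, 7 have a row in the deposited table of 21523 Ensembl gene identifiers, and S100a9 was not analysed here. The 4 libraries form 2 groups: 2 control libraries labelled as untreated, and 2 libraries from cultures exposed for 24 h to 1,5-anhydroglucitol (1,5-AG) at 0.5 mM. This compound is a polyol that resembles glucose but lacks the hydroxyl group on carbon 1. All cultures were kept in DMEM with fetal bovine serum and antibiotics. A culture time for the controls and the origin of the replicates in separate cultures are not given in the labels. Any p-value therefore reflects how far libraries of a group differ, and that distance may be technical.

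S100 proteins form dimers, and each chain carries a pair of calcium-binding loops of the helix-loop-helix type called the EF-hand. Calcium opens the dimer and exposes a surface that binds target proteins, among them the annexins, which attach to membranes. S100A10 is the exception, since its loops have lost calcium binding and it stays in the open form. S100A8 and S100A9 pair into calprotectin, an abundant cytosolic protein of neutrophils and monocytes that is released in inflammation and acts on the receptors TLR4 and RAGE (the product of Ager).

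All 8 genes lie on mouse chromosome 3 (build mm10, GENCODE release M21). S100a1 (minus strand, 90511034 to 90514392) and S100a13 (plus strand, 90514435 to 90524581) start back to back, with 42 bases between the outermost annotated starts in GENCODE and 104 between the RefSeq starts. S100a4 (90603771 to 90606045), S100a6 (90612882 to 90624181), S100a8 (90668978 to 90670035) and S100a9 (90692632 to 90695721) follow in the same cluster. S100a11 (93520488 to 93526287) and S100a10 (93555080 to 93564643) stand apart from it, next to each other on the plus strand.

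The sequences before 4 of the genes that were expressed are shown, namely those with a RefSeq start-site window. The treated libraries lay below the controls in all 4, and also in S100a10, which has no such window. The same held for 25.4% of all genes tested. A link between these sequences and the levels was not tested. RefSeq start-site windows on GRCm38.p6 were found for 7 of the 8 genes, all but S100a10. Each sequence below is the plus strand, 5′ to 3′, and stops before the first annotated exon. The S100a11 window is chr3:93520246-93520487, the S100a6 window is chr3:90612644-90612881, and the piece between S100a1 and S100a13 is chr3:90514393-90514434. Capitals mark matches, on either strand, to AP-1 (TGANTCA), the GC box (GGGCGG), the TATA box (TATAAA), the CCAAT box (CCAAT) or CRE (TGACGTCA), and no 2 matches overlap.
S100a11: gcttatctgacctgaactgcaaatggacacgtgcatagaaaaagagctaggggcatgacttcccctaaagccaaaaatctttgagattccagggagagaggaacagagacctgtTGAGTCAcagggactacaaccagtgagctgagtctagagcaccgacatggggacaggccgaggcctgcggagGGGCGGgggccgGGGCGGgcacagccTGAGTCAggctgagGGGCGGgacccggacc
S100a6: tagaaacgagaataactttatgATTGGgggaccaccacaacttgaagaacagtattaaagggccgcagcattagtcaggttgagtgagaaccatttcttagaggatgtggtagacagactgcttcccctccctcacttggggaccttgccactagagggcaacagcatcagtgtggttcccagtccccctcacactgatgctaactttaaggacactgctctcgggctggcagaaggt
S100a1 and S100a13: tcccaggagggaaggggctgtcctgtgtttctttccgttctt

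The S100a11 window holds 2 AP-1 matches and 3 GC boxes, and the S100a6 window holds 1 CCAAT box and none of the other 4 motifs. Over the full 250 bases before the RefSeq start, S100a1 and S100a13 hold no match to any of the 5 motifs, and S100a4 and S100a8, both near the detection limit in these cells, each hold 1 TATA box, at 31 and 30 bases before the start. Of 32851 RefSeq windows of 250 bases, 6.75% hold an AP-1 match, 32.7% a GC box, 12.4% a TATA box, 33.8% a CCAAT box and 1.55% a CRE. A match describes letters and not a bound site.

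Expression was measured as FPKM, the fragments of a gene divided by its exon length and by the depth of the library. A comparison of levels between genes therefore depends on the exon length taken from the annotation. The libraries held 14616556 to 16228673 fragments assigned to genes. Of 8 macrophage markers 6 had a mean of at least 1 FPKM, at levels that differed widely. Cd68, a lysosomal protein of macrophages, was at 475 to 499 FPKM in the group means. Itgam ranked 6194th by level among the 11120 genes with a mean of at least 1 FPKM. C1qa had 0 and 0 fragments in control against 2 and 0 with 1,5-AG, and Mertk was not analysed here. Lyz2, the macrophage lysozyme, was lower with 1,5-AG (limma adjusted p = 0.0169), at 4488 FPKM in the control mean and 3048 FPKM in the 1,5-AG mean. Lyz2 passed in 8 of 14 other settings of the fit. It did not pass without the variance trend (limma adjusted p = 0.0832) or with all low genes kept (limma adjusted p = 0.288). It dominates the summed macrophage list, which was 5231 and 5361 FPKM in control against 3768 and 3854 FPKM with 1,5-AG. Adgre1 (-0.32) and Csf1r (-0.11) had negative log2 differences that did not pass by limma. Cd68 (-0.07), Itgam (0.04) and Fcgr1 (0.11), named after their values were seen, had small log2 differences of either sign that did not pass. Of the 11 neutrophil markers, of which 4 have a row, Csf3r exceeded 1 FPKM. The list sum, which Csf3r dominates, was 2.42 to 2.66 FPKM in control and 1.59 to 1.87 with 1,5-AG. Below 1 FPKM the markers went both ways. Mmp9 had 4 and 1 fragments in control against 25 and 11 with 1,5-AG. Camp had 2 and 3 against 0 and 1, and Elane had 3 and 4 against 0 and 1. Ighm (mean 45.1 FPKM) and Lck (1.26 FPKM) were the other markers of other cell types above 1 FPKM. The B cell list, which Ighm dominates, summed to 49.3 and 53.8 FPKM in control against 38.1 and 39.8 FPKM with 1,5-AG. The other lists, of fibroblasts, epithelium and dendritic cells, had no marker at 1 FPKM. The part of these shifts in the results on the S100 genes was not tested. In bulk RNA, fewer cells of a kind and less RNA per cell cannot be told apart.

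RAW264.7 cells expressed 5 of the 8 genes at a mean of at least 1 FPKM, and the other 2 with a row lay near the limit of detection. S100a11, S100a6 and S100a10 ranked 149th, 179th and 202nd by level among 11120 genes with a mean of at least 1 FPKM. S100a1 ranked 757th and S100a13 1778th. In each of the 4 libraries the order of the levels was S100a11, S100a6, S100a10, S100a1 and S100a13. The first 3 genes made up 87.1% to 88.2% of the summed FPKM of the family. Their order rests on annotated exon lengths of 511 bases for S100a11, 1367 for S100a6 and 1212 for S100a10. By fragments it differed: in control library 1 S100a6 had 5141, S100a10 4418 and S100a11 2286. In control S100a6 and S100a10 were the closest of these 3 genes by FPKM, at 245 to 248 and at 233 to 240. The gap between the near ends of these ranges was smaller than the distance between the S100a10 replicates. With 1,5-AG the closest of these 3 were S100a11 (241 to 242 FPKM) and S100a6 (216 to 229 FPKM). Here the gap between the near ends was smaller than the distance between the S100a6 replicates.

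The level of S100a11, a partner of annexin A1, was 295.0 and 310.4 FPKM in the control libraries and 241.8 and 241.5 FPKM with 1,5-AG. Both 1,5-AG libraries lay below both controls. The mean fell by 20.2%, from 302.7 ± 10.9 to 241.6 ± 0.214 FPKM (SD, n = 2 per group, as in all values that follow), a log2 difference of -0.32 (SE 0.04) on the log2(FPKM + 1) scale.

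The level of S100a10, which binds annexin A2 as a heterotetramer at the plasma membrane and acts as a plasminogen receptor, was 240.4 and 233.1 FPKM in control and 191.0 and 187.9 FPKM with 1,5-AG. The groups did not overlap here either. The mean fell by 20.0%, from 236.7 ± 5.19 to 189.4 ± 2.24 FPKM, a log2 difference of -0.32 (SE 0.04).

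S100a6 encodes calcyclin, which binds the ubiquitin-ligase adaptor CacyBP and several annexins. Its level was 248.0 and 245.5 FPKM in control and 215.6 and 229.3 FPKM with 1,5-AG, with means of 246.7 ± 1.79 and 222.4 ± 9.68 FPKM and a log2 difference of -0.15 (SE 0.04). Both treated libraries were the lower ones, but they stood farther apart from each other than the controls did, and the difference did not pass the threshold.

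S100a1, best known as a regulator of calcium cycling in heart muscle, had 72.98 and 73.07 FPKM in control and 61.02 and 66.17 FPKM with 1,5-AG. Its log2 difference was -0.20 (SE 0.05), with group means of 73.0 ± 0.0670 and 63.6 ± 3.64 FPKM. S100a13, which takes part in the release of FGF1 and interleukin 1 alpha from cells without a signal peptide, had 31.17 and 33.18 FPKM in control and 30.43 and 29.71 FPKM with 1,5-AG. Its log2 difference was -0.09 (SE 0.05), with group means of 32.2 ± 1.42 and 30.1 ± 0.510 FPKM. For both genes the treated libraries lay below the controls, by a narrow margin for S100a13, and neither passed the threshold. These 2 genes share the short sequence printed above. S100a1 stood at 2.20 and 2.34 times the FPKM of S100a13 in control and at 2.01 and 2.23 times with 1,5-AG, ranges that overlap.

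**Figure D1:**
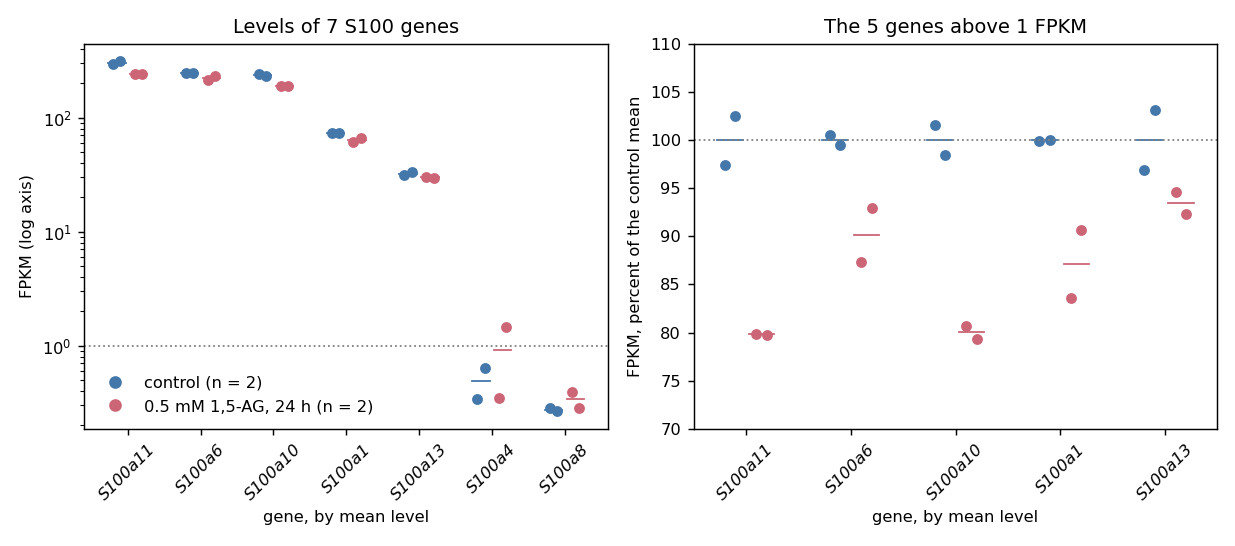
FPKM of the 7 S100 genes with a row in the table (left, log axis, dotted line at 1 FPKM) and, for the 5 genes above that line, each library as a percent of its gene's control mean (right, axis from 70 to 110). Points are libraries and short lines are group means. The 1,5-AG libraries lie at 79.4% to 80.7% of the control mean for S100a10, at 79.8% and 79.9% for S100a11 and at 94.6% and 92.3% for S100a13.

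Across the family, 2 of the 5 tested genes, S100a10 and S100a11, were past an adjusted p of 0.05 in the limma fit over 11120 genes, both lower, where 0.647% of all genes tested were called lower and 1.46% were called in either direction. The groups did not overlap in 5 of 5 genes, all with 1,5-AG lower, against 25.4% of all genes tested in that direction. The median log2 difference was -0.20, beside -0.0025 over all genes tested. Since these genes were picked with these values known, nothing is read from the counts. The summed FPKM of the family was 888 and 896 in control and 741 and 756 with 1,5-AG.

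The calls depended on each library and on the settings of the fit. In fits with any 1 of the 4 libraries left out, 0 of the 5 genes passed (2 to 4 had an unadjusted p under 0.05), and 2 to 10 of all genes did. In these 4 fits the log2 difference of S100a10 ranged from -0.34 to -0.30 and that of S100a11 from -0.36 to -0.29. Neither gene passed without the variance trend or without the filter on low values. With voom on the recovered fragments S100a6 also passed, giving 3 lower, where 4.64% of genes were called lower.

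**Figure D2:**
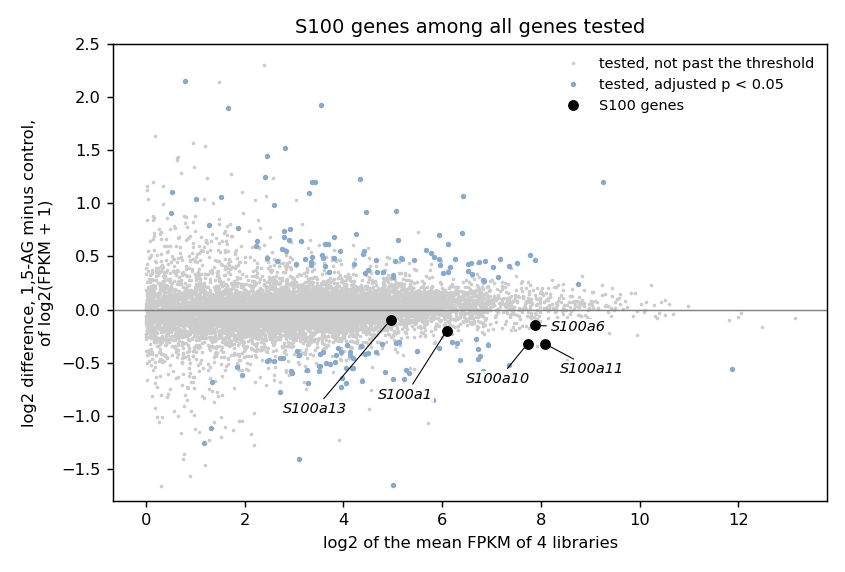
Log2 difference of log2(FPKM + 1) between the 1,5-AG and control means against the log2 of the mean FPKM for the 11120 genes tested, with the 5 tested S100 genes in black and genes with an adjusted p under 0.05 in blue. The S100 genes lie between -0.09 and -0.32, and S100a10, S100a11 and S100a6 lie among the abundant genes.

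S100a11 has near-identical copies, which makes its value uncertain. Its transcript aligned over at least 100 bases and at 90% identity or more to 5 annotated processed pseudogenes, of which Gm12854 (99.0% over 297 bases) and Gm7665 (98.7% over 297 bases) have rows. The fragments of Gm12854 numbered 86 and 123 in the controls against 102 and 95 in the treated libraries. Those of Gm7665 numbered 165 and 178 against 155 and 110, and those of S100a11 itself 2286 and 2574 against 1806 and 1865. The copies thus took 9.89% to 12.5% of the fragments of the 3 genes, and whether these fragments came from the copies is not known. Summed over the 3 genes, the level was 167 and 177 fragments per 1000000 assigned fragments in control and 141 and 137 with 1,5-AG. With that sum in place of the S100a11 row the log2 difference was -0.31 and the gene no longer passed the threshold (limma adjusted p = 0.0504), an alternative chosen after the data were seen. No such copy in another place was found for the other 7 genes.

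S100a4, a gene linked to cell motility and used as a marker of fibroblasts, had 3 and 6 fragments in the controls against 3 and 13 in the treated libraries, or 0.339 and 0.633 against 0.351 and 1.47 FPKM. The groups overlapped, and the count of 13 in 1 library (exact Poisson 95% interval 6.92 to 22.2, for counting error only) set the higher treated mean. S100a4 also overlaps the gene model Gm42674 on the same strand. S100a8 had 3 and 3 fragments in the controls against 4 and 3 in the treated libraries (0.285 and 0.266 against 0.394 and 0.286 FPKM). A count of 3 fragments has an exact Poisson interval from 0.619 to 8.77, so a small difference in S100a8 was not detectable at this depth. Neither gene reached the mean of 1 FPKM required for the test.

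The other family members with a row were at or near 0. Of 9 further mouse S100 genes listed, 5 have a row (S100a3, S100a5, S100a7a, S100a14 and S100b) and 0 reached a mean of 1 FPKM. S100a7l2, S100a16, S100g and S100z, and S100a2 outside the list, were not analysed here. S100a14 had 5 and 4 fragments in the controls against 0 and 1 in the treated libraries. S100a5 had 2 and 1 against 0 and 1, S100b had 1 fragment in a control library, and S100a7a had 1 fragment in a treated library. S100a3 was listed at 0 FPKM in both controls and at 0.0512 and 0.0496 FPKM with 1,5-AG. S100a6, at 216 to 248 FPKM, lies 1101 bases from the end of S100a5 in the annotation, so abundant and nearly silent S100 genes are neighbours in the cluster.

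**Figure D3:**
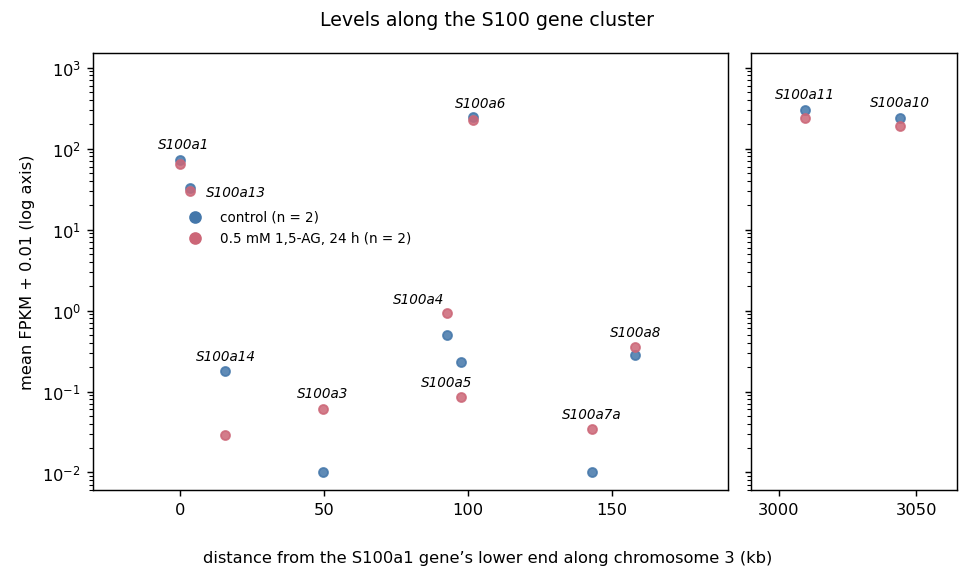
Mean FPKM + 0.01 per group (log axis) of the S100 genes with a row, by distance in kb from the lower end of S100a1 along chromosome 3. The left panel holds the main cluster, in which S100a1, S100a13 and S100a6 lie above 10 FPKM and the others below 1 FPKM, and the right panel holds S100a11 and S100a10.

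Partners and receptors of S100 proteins were followed in a list of 17 genes, of which 13 were tested. In this list 3 genes fell and 0 rose, with 9 negative and 4 positive differences and a median of -0.04. Over all genes tested 0.647% were called lower, 5656 of 11120 were negative and the median was -0.0025. The list was chosen with earlier results of these data known, so nothing is read from these counts. A p-value printed for one of its genes is not independent evidence. Ahnak, the giant scaffold protein AHNAK that binds the S100A10 and annexin A2 complex under the plasma membrane, had 131.5 and 142.6 FPKM in control and 90.1 and 92.9 FPKM with 1,5-AG. It fell by 33.2%, the lowest difference of the list (log2 difference -0.58, SE 0.05, limma adjusted p = 0.0221). Anxa1, the membrane-binding and anti-inflammatory partner of S100A11, had 67.6 and 70.7 FPKM in control and 53.6 and 53.3 FPKM with 1,5-AG (-0.36, SE 0.04, limma adjusted p = 0.0330). Cd33, a sialic acid receptor of myeloid cells whose human form binds S100A9, had 15.4 and 16.3 FPKM in control and 10.8 and 10.8 FPKM with 1,5-AG (-0.52, SE 0.05, limma adjusted p = 0.0274). Both treated libraries lay below both controls in 6 of the 13 tested genes of the list and above them in 2. Over all 11120 genes tested these counts were 2829 and 2687. The 3 called genes are among the 6, which adds nothing to their call.

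Anxa2, which pairs with S100A10, had 150.1 and 163.0 FPKM in control and 136.0 and 140.8 FPKM with 1,5-AG. Its log2 difference of -0.18 (SE 0.05) did not pass (limma adjusted p = 0.179). Within each library S100a10 stood at 1.60 and 1.43 times the FPKM of Anxa2 in control and at 1.41 and 1.33 times with 1,5-AG. S100a11 stood at 4.36 and 4.39 times the FPKM of Anxa1 in control and at 4.51 and 4.53 times with 1,5-AG. The first ratio was thus lower and the second higher in the treated libraries, each by less than 10% of the control mean (-9.63% and 3.25%). For the first, the gap between the near ends of the groups was smaller than the distance between the control replicates. The second takes the S100a11 row without its copies.

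The receptors RAGE and TLR4 gave no called change. Ager was listed at 0.370 and 0.403 FPKM in control and at 0.224 and 0.340 FPKM with 1,5-AG, under the limit for testing. Tlr4 had 18.5 and 19.9 FPKM in control and 21.1 and 21.4 FPKM with 1,5-AG (log2 difference 0.14, SE 0.05, limma adjusted p = 0.249). Cacybp, the partner of S100A6, had 93.3 and 89.6 FPKM in control and 95.8 and 94.9 FPKM with 1,5-AG (0.06, SE 0.04, limma adjusted p = 0.482). Tlr4 and Cacybp were named here after their values were seen. In fits with any 1 library left out 0 of the 13 genes passed, with 5 at an unadjusted p under 0.05 in each.

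Other EF-hand genes served to set the S100 genes beside proteins that carry EF-hand motifs, in many cases together with other domains. Of 35 listed genes 32 were tested, and by limma 0 passed in either direction (8 had an unadjusted p under 0.05, and voom called 3). There were 18 negative and 14 positive differences, with a median of -0.04. Over all 11120 genes tested 1.46% passed by limma, 2023 had an unadjusted p under 0.05 and 5656 were negative. Voom called 917 of 11056 genes. As with the partners, this list was chosen with earlier results of these data known, so nothing is read from its counts. Capn2, the large subunit of the calcium-dependent protease calpain 2, had 12.7 and 12.5 FPKM in control and 9.47 and 9.78 FPKM with 1,5-AG (-0.36, SE 0.05, limma adjusted p = 0.0504). Plcg2, a phospholipase C of immune receptor signalling, had 51.9 and 49.7 FPKM in control and 42.2 and 42.7 FPKM with 1,5-AG (-0.25, SE 0.04, limma adjusted p = 0.0694). Both were lower in each treated library and missed the threshold.

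**Figure D4:**
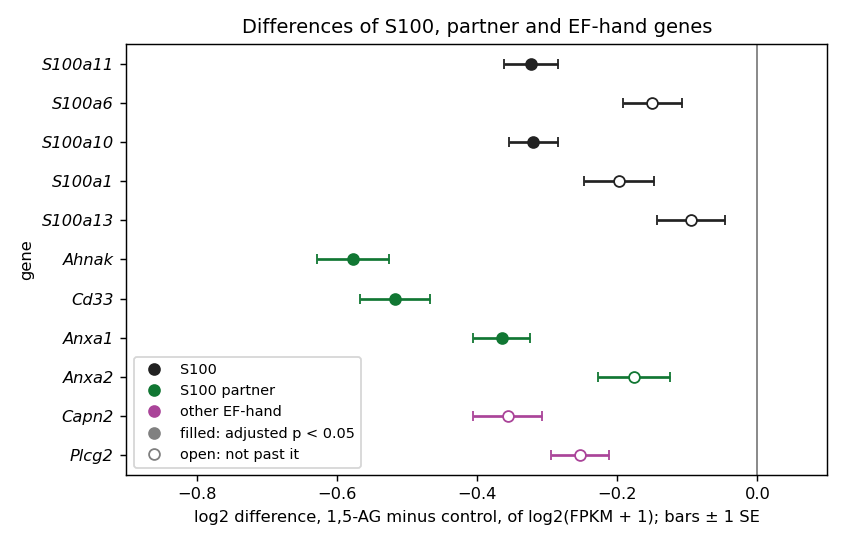
Log2 differences (1,5-AG minus control, of log2(FPKM + 1)) with bars of 1 SE for the 5 tested S100 genes, 4 partners and 2 other EF-hand genes. Filled points had an adjusted p under 0.05; Ahnak (-0.58) and Cd33 (-0.52) lie farthest from 0, and S100a13 (-0.09) lies nearest.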

How the data were processed

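Values were the FPKM deposited by the authors, 1 column per library, made from stranded mRNA libraries per the labels' protocols. Trimmomatic, HISAT2, Cufflinks and HTSeq with mm10 are named per the submitters' processing notes; no version, role, strand setting or annotation release was found in the labels. Of 21523 identifiers 21508 matched GENCODE M21. FPKM multiplied by merged exon length gave whole fragments (within 0.02) in all 4 libraries for 99.4% of matched genes, which gave the depths; 3 fragments in 2 kb correspond to 0.0924 to 0.103 FPKM, for counting error only.

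Groups were compared with limma 3.58.1 (R 4.3.3) on log2(FPKM + 1), group as the only term, variance trend, two-sided, Benjamini-Hochberg over the 11120 genes with a mean of at least 1 FPKM; threshold 0.05. FPKM differences on this scale understate changes of low genes. The smallest two-sided exact permutation p for 2 against 2 libraries is 0.333. Near-identical copies were sought with blastn 2.17.0 against M21 transcripts. No batch is labelled.

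Members and lists were chosen with earlier results of these data known. Named genes were the members, the other S100 genes with rows, up to 4 called genes per list by smallest p (or the 2 smallest p where fewer than 2 passed), Anxa2, Cd68, Csf1r, Adgre1 and Lyz2. Csf1r and Adgre1 had log2 differences of -0.11 and -0.32 and did not pass; both passed with voom (limma adjusted p = 0.0215 and 0.00598). Alternatives were other pseudocounts, filters, scalings, variance settings, voom, a replicate block and leaving out each library.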

Additional observations from a re-analysis of the deposited data

How the results depend on the processing

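Under 14 other settings the 5 tested S100 genes stayed negative in each; S100a10 and S100a11 passed in 8 of these, S100a6 in 1, and S100a1 and S100a13 in none. Without a filter on low values and without the variance trend 0 S100 genes and 0 partners passed (4 and 3 S100 genes, and 6 and 6 partners, at an unadjusted p under 0.05). With 1 library left out the counts were 0 to 0 for S100 genes and for partners, and 2 to 10 for all genes, where the lone sample of a group is assumed to vary like the other group. With S100a11 summed with its copies 1 S100 gene passed. Partners past the threshold, 3, were 5 with voom. Other EF-hand genes past it, 0, were 1 with a pseudocount of 0.01, 2 at a minimum mean FPKM of 5, 1 with robust variance and 3 with voom. All genes past it, 162, were 0 without a filter (2628 at an unadjusted p under 0.05), 5 without the variance trend, 360 when the minimum mean FPKM was 5, and 917 with voom. For the other S100 genes only the unfiltered fit gives a value. The replicate block gave 310 genes and the same 2 S100 genes; deviations of same-numbered libraries correlated at 0.0124, and the labels do not say that a number marks a shared culture. The genes tested numbered 21515 without a filter and 7500 at a minimum mean FPKM of 5, against 11120 in the reported fit. Fewer libraries enter where 1 is left out. The cause of the changed counts was not tested. With voom 404 of the 917 genes were higher and 513 lower, against 90 and 72 in the reported fit.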
